A study of Mus musculus with 9 samples.

Results

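The genes described here encode the translation initiation factors of mouse gastrocnemius, the large fast-twitch calf muscle. They were taken from the gene annotation of the count data as every protein-coding gene whose symbol starts with Eif, without the Eif2ak kinases, which gave 56 of 55487 genes. Of these, 49 had enough counts to enter the tests, in which 14851 genes were fitted together. RNA-seq libraries came from wild-type C57BL/6 mice labelled male, with no substrain in the labels, in 3 groups. The study's methods mention female mice for hindlimb unloading, so label and methods differ on sex. Transcripts of Eif2s3y and Ddx3y, genes of the Y chromosome, were read in all 9 libraries, which goes with the male label. The 4 Control libraries were from mice in conventional cages, the 2 Unloading libraries from mice after 10 days of hindlimb unloading, in which the hind limbs bear no weight, and the 3 Reloading libraries from mice that were unloaded and then returned to the cage for 1 day. No group carried a transgene or a drug, and the muscle was sequenced as whole tissue, so fewer cells of a type and less RNA per cell cannot be told apart. Nothing in the labels ties the libraries to separate animals, so the p-values below measure the spread between these libraries.

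Translation starts when the small ribosomal subunit, carrying the initiator tRNA brought by eIF2, is placed on an mRNA, scans to a start codon and is joined by the large subunit. The cap-binding protein eIF4E, the scaffold eIF4G and the RNA helicase eIF4A open the capped end of the mRNA, and eIF3 holds the small subunit on it. Loading of skeletal muscle is known to raise protein synthesis largely through the kinase mTORC1, which phosphorylates the eIF4E-binding proteins and so frees eIF4E, and through the supply of active eIF2, which its exchange factor eIF2B recharges. These controls act on proteins, and the data below are mRNA levels only.

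The libraries held between 9252443 and 19612101 read pairs assigned to genes. Levels are given as CPM (counts divided by the scaled library total and multiplied by 1000000) after TMM scaling, which sets the libraries to a common level over most genes. The TMM factors lay between 0.928 and 0.960 in Control and Unloading and between 1.11 and 1.13 in Reloading, so the Reloading levels depend on that scaling. The tissue label matched its markers, as 6 genes of fast fibres summed to between 143875 and 158016 CPM in Control, between 142532 and 150283 CPM in Unloading and between 101687 and 113119 CPM in Reloading. Summed markers of macrophages were at 56.8 to 69.7 CPM in Control, 55.7 to 58.5 CPM in Unloading and 125 to 139.9 CPM in Reloading, and those of endothelium at 112 to 136 CPM, 115.6 CPM in both libraries and 200.4 to 251 CPM. The 4 satellite cell and myoblast markers summed to 21.5 to 31.4 CPM, 18.5 to 19.3 CPM and 37.3 to 40.9 CPM in the same order. From Unloading to Reloading the mean of Myod1 rose from 10.6 to 26.4 CPM and that of Myog from 3.06 to 8.13 CPM. Pax7, at 3.45 and 3.07 CPM, and Myf5, at 1.77 and 1.38 CPM, did not rise. All 6 macrophage markers were called higher there, with most of the rise in Cd68, from 3.05 to 45.9 CPM. The 4 fibroblast markers summed to 315 to 455 CPM, 423 to 448 CPM and 414 to 520.3 CPM, and in Unloading against Control 2 of them (Dcn and Pdgfra) were called higher and 1 (Col1a1) lower. Dcn was at 227 ± 11.5 CPM in Control and 342 ± 29.1 CPM in Unloading, Pdgfra at 14.6 ± 1.46 and 22.4 ± 2.12 CPM, and Col1a1 at 123 ± 54.1 and 58.2 ± 7.83 CPM. None of the genes in these lists was at 0 in all libraries. Control 2 and Reloading 1 held transcripts of skin, at 275 and 124 CPM over 5 keratin and related genes. The part of these differences in the results below was not tested.

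The 56 genes together took 0.662% ± 0.0226 of the read pairs in Control (SD, n = 4), 0.722% ± 0.0323 in Unloading (n = 2) and 0.748% ± 0.00723 in Reloading (n = 3). On the TMM scale their summed level was 6996 ± 247 CPM in Control, 7672 ± 259 CPM in Unloading and 6701 ± 130.4 CPM in Reloading. The Reloading mean was thus the highest by share of read pairs and the lowest on the TMM scale. Individual genes moved by little. The log2 fold changes between Reloading and Unloading ran from -0.67 to 0.86 over the 49 genes tested, and on the TMM scale no member reached 2-fold in any of the 3 comparisons.

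Unloading against Control asked which initiation factors differed after 10 days without weight bearing. Under edgeR's quasi-likelihood test with Benjamini-Hochberg adjustment over all genes, 7 of the 49 genes were higher (14.3%, against 4.4% of all genes tested) and 0 were lower (against 5.5%). At an unadjusted p under 0.05, 14 were higher and 0 lower, and DESeq2's Wald test called 9 higher and 0 lower. The shares of all genes at an unadjusted p or under the Wald test are not given here. Over the members the log2 fold changes had a median of 0.10, beside -0.0038 for all genes. The 7 genes were Eif5b, Eif3j1, Eif2s2, Eif4b, Eif3c, Eif4g3 and Eif4a1. Leaving out Unloading 1 leaves 1 library in that group, whose spread is then taken from the other groups, and in that fit 0 members were called, with 9 higher and 0 lower at an unadjusted p under 0.05. The log2 fold changes of the 7 genes, in the order above, were 0.45, 0.48, 0.35, 0.35, 0.31, 0.30 and 0.27 with both libraries and 0.37, 0.48, 0.30, 0.22, 0.23, 0.25 and 0.23 without Unloading 1. Without Unloading 2, 6 members were called.

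Reloading against Unloading asked what changed within 1 day of renewed weight bearing, and Reloading against Control how the reloaded muscle stood against muscle that was never unloaded. Between Reloading and Unloading, 7 members were higher (14.3%, against 18.5% of all genes) and 21 were lower (42.9%, against 19% of all genes), and the log2 fold changes of the members had a median of -0.08 beside 0.03 for all genes. Scaled by library totals alone the split was 21 higher and 5 lower, beside 35.4% higher and 7.34% lower of all genes, whose median then stood 0.25 higher. Relative to the median of all genes the members' median was -0.11 under both scalings. Between Reloading and Control, 10 members were higher (20.4%, against 22.1%) and 14 lower (28.6%, against 21.3%). By library totals 31 were higher and 0 lower at the adjusted threshold, beside 40.6% higher and 9.99% lower of all genes. Without adjustment 31 and 1 had a p under 0.05 by library totals. DESeq2's Wald test on its own size factors called 9 higher and 14 lower between Reloading and Control. The shares of all genes for these last 2 settings are not given here. The shift of all genes with the scaling was 0.24 in that comparison, and the members' median relative to it was 0.05 under both.

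Directions in the comparisons with Reloading are therefore stated on the TMM scale. The calls that hold on both scales between Reloading and Unloading were all 7 higher genes (Eif1a, Eif4a1, Eif3d, Eif2b4, Eif3g, Eif6 and Eif2s1) and, among the lower ones, Eif2s2, Eif2s3y, Eif3e, Eif4b and Eif3f. Of these, Eif2b4, Eif3g, Eif6 and Eif2s1 were not called without Unloading 1, at 0.31, 0.16, 0.26 and 0.22. Over 19 other settings Eif2b4 was called in 18, Eif3g in 16, Eif6 in 15 and Eif2s1 in 3. Members not called on the TMM scale but higher by library totals numbered 14 between Reloading and Unloading and 21 between Reloading and Control. The comparisons share libraries, so their calls are not independent of each other.

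**Figure D1:**
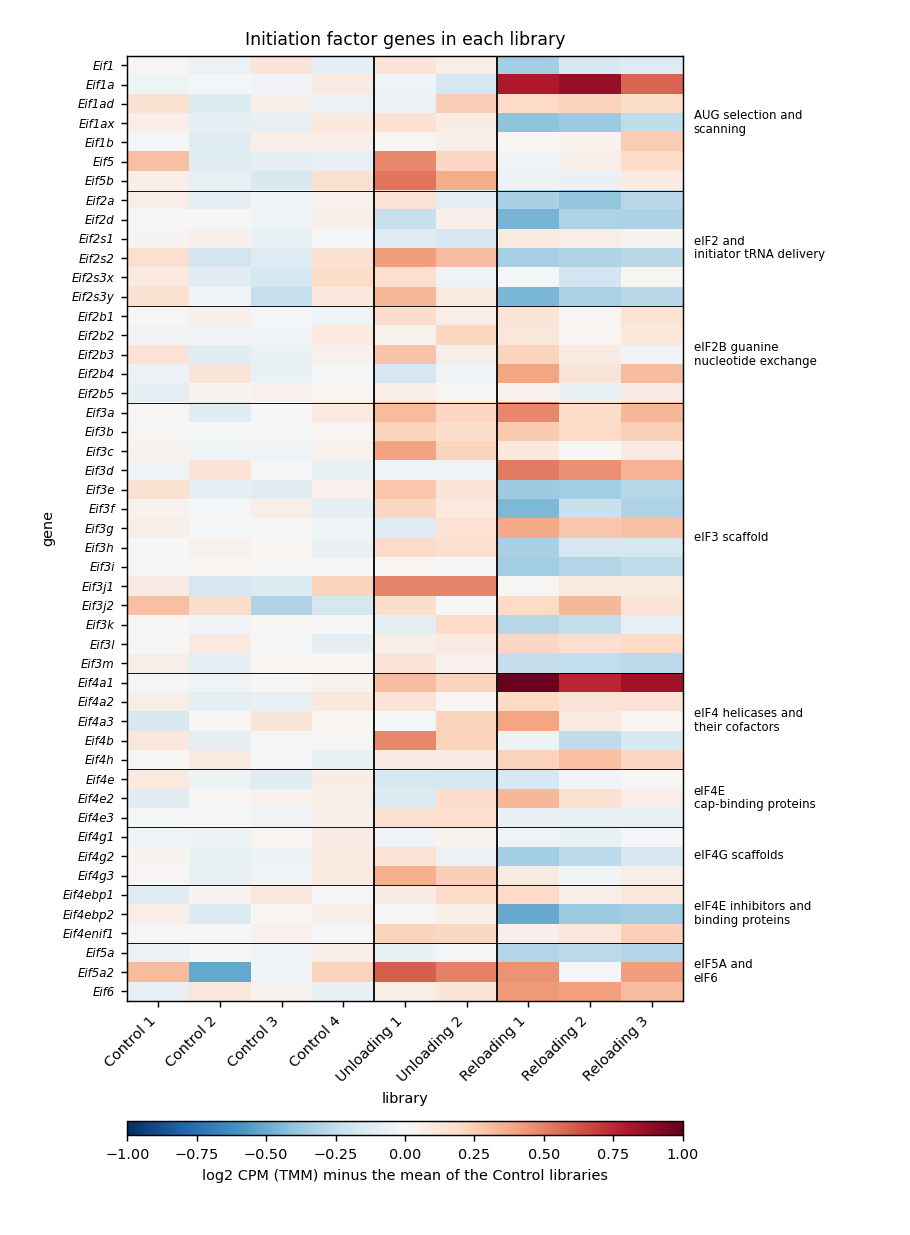
Heat map of the 49 tested initiation factor genes (rows, grouped by role) in the 9 libraries (columns); colour is the log2 CPM after TMM scaling minus the mean of the 4 Control libraries, so blue in Reloading turns paler or red when libraries are scaled by totals. Eif4a1 and Eif1a were the reddest rows in Reloading, and Eif5b and Eif3j1 were red in both Unloading libraries.

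**Figure D2:**
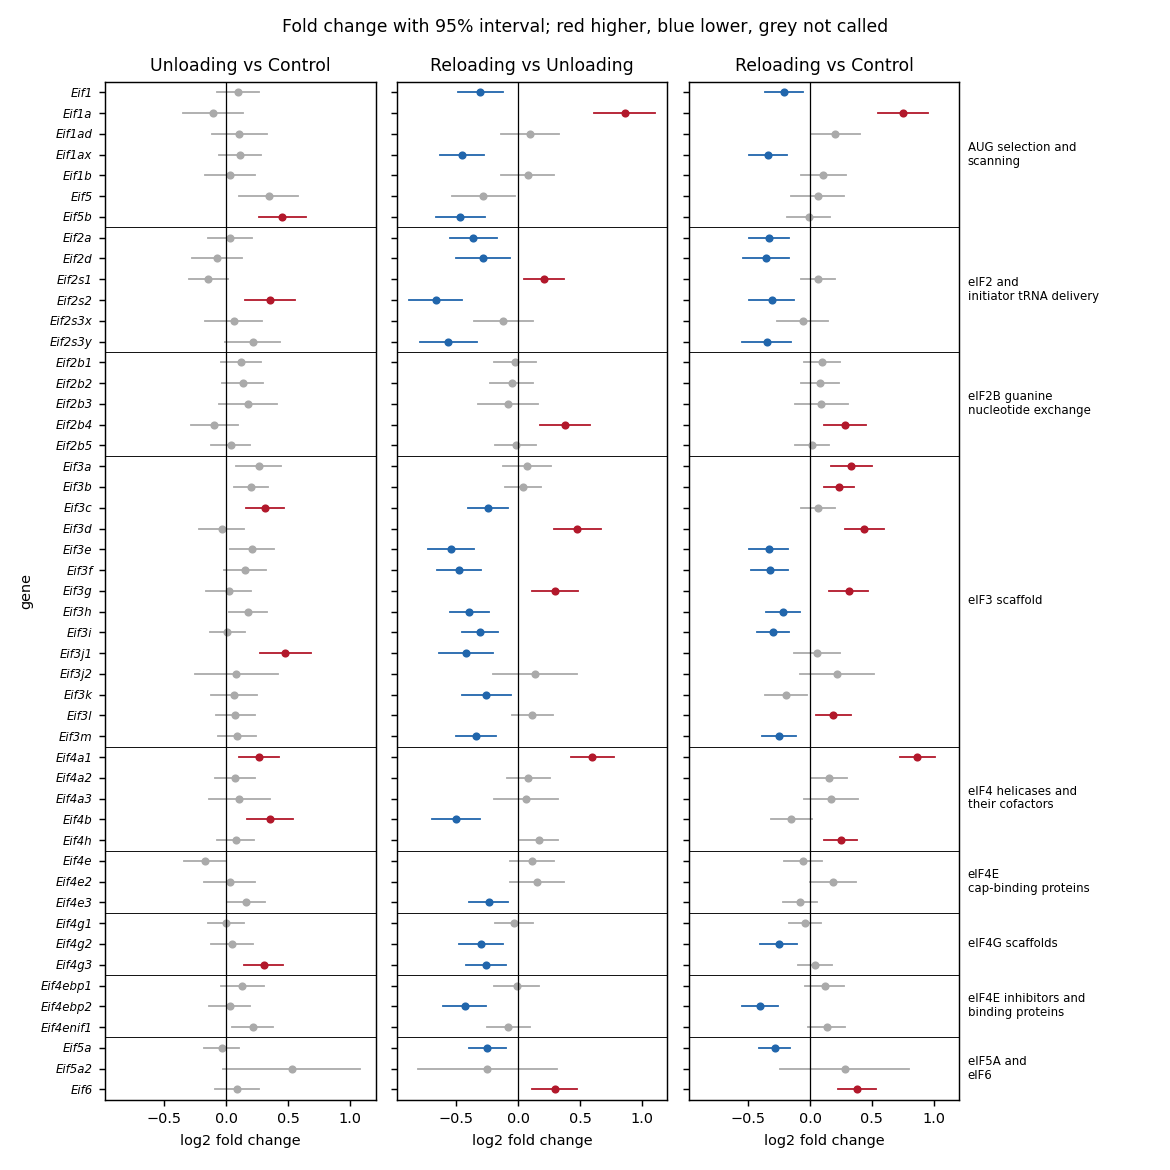
Log2 fold change (x axis) of each tested gene (y axis, by role) in the 3 comparisons, with 95% intervals from the edgeR fit on the TMM scale; red genes were higher, blue lower and grey not called at an adjusted p of 0.05. Unloading against Control held 7 red and 0 blue genes, and Reloading against Unloading 7 red and 21 blue, a split that became 21 and 5 under library totals.

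**Figure D3:**
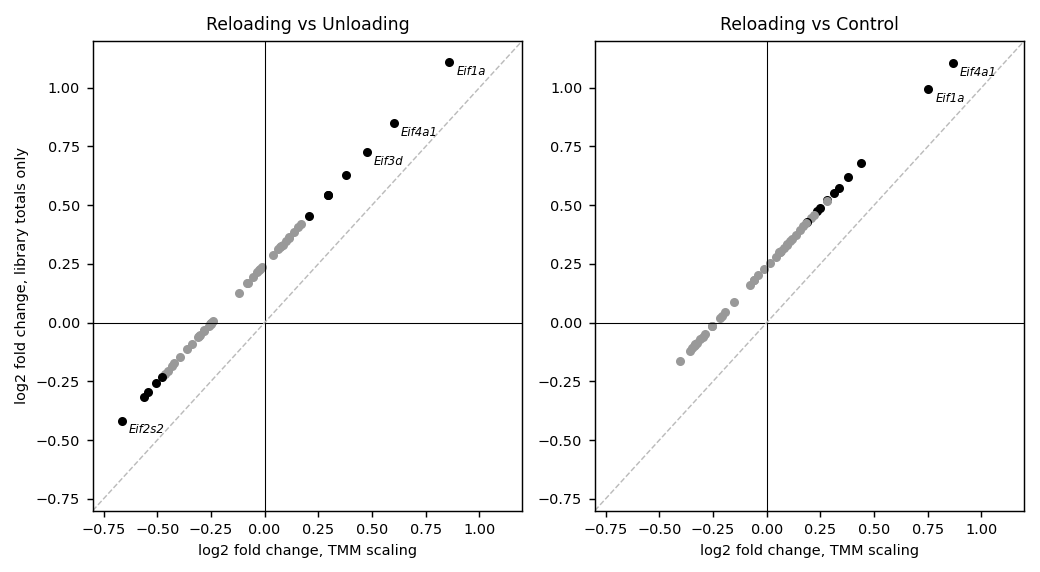
Log2 fold change of the 49 genes under TMM scaling (x axis) and under library totals only (y axis), with equality as a dashed line; black points were called in the same direction under both, grey points were not. All points lie above the line by about the shift of all genes, 0.25 in Reloading against Unloading and 0.24 in Reloading against Control.

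Promoter sequences were available in the RefSeq table (GRCm38.p6) for 40 of the 56 genes, as 52 windows from 250 bases before to 50 bases after a start site. Stretches of 120 bases just upstream of the gene are printed for 5 of the genes with a promoter whose changes are described below, Eif4a1 and Eif3d as genes higher in Reloading and Eif2s2, Eif4b and Eif4ebp2 as genes lower there than in Unloading, and for Eif4a2 as the paralog of Eif4a1. Capitals mark matches on either strand to CACGTG (E-box), CGGAAG (ETS), GGGCGG (GC box), TGACGT (CRE core), CCAAT and TGATGNAAN (the CARE of the amino acid response); the ETS and GC box matches of Eif4a2 overlap.
Eif4a1 (chr11:69672424-69672543, minus strand): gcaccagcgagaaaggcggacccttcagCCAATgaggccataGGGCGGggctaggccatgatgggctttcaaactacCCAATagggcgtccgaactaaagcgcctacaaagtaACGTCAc
Eif4a2 (chr16:23107324-23107443, plus strand): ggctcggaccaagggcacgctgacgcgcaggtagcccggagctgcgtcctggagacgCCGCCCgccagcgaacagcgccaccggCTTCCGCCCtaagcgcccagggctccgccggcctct
Eif3d (chr15:77970825-77970944, minus strand): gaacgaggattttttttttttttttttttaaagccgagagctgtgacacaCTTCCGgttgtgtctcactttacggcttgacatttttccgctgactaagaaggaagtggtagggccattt
Eif2s2 (chr2:154892936-154893055, minus strand): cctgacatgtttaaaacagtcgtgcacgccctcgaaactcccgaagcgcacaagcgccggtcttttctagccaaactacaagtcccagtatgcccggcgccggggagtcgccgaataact
Eif4b (chr15:102073653-102073772, plus strand): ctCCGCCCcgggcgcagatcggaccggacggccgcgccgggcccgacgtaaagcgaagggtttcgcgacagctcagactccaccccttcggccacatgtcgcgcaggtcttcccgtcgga
Eif4ebp2 (chr10:61452670-61452789, minus strand): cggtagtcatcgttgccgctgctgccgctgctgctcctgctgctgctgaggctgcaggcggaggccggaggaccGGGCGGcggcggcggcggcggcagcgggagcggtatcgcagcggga
In the Eif4a1 stretch 2 CCAAT boxes, 1 GC box and 1 CRE core were found, in that of Eif4a2 2 GC boxes and 1 ETS match, and in that of Eif2s2 none of the letters searched.

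Over whole windows, the ETS letters stood in 26 of the 52 member promoters (against 16.9% of all 32851 promoters in the table) and the GC box in 38 (73.1%, against 35.7%). The E-box stood in 12 (23.1%, against 7.2%), the CRE core in 10 (19.2%, against 7.5%), CCAAT in 14 (26.9%, against 37.4%) and the CARE in 1 (1.9%, against 4.0%). Among members called between Reloading and Unloading, a promoter was listed for 5 that were higher and 16 that were lower. The ETS letters were found for 4 and 8 of them, the GC box for 4 and 11, the CRE core for 2 and 4, and the E-box for 1 (Eif4a1) and 3. Matches are a description of these windows. Among the 52 windows a gene with several promoters counted for each of them, and among the called members once. Eif5a held 3 of the E-box windows and Eif4e2 3 of the CRE core windows. By gene, the E-box was found for 10 members and the CRE core for 8.

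The helicase eIF4A unwinds structure at the capped end of mRNAs, eIF4B and eIF4H assist it, and Eif4a3 encodes the related helicase of the exon junction complex. Eif4a1 (chr11:69666936-69672423, minus strand) was at 82.7, 81.1, 83.7 and 85.6 CPM in Control, 103 and 97.2 CPM in Unloading and 165, 141 and 149 CPM in Reloading. No library of one group overlapped another, and the level stood higher in each group in that order. The log2 fold changes were 0.27 ± 0.08 (SE, adjusted p = 0.0386) for Unloading against Control, 0.60 ± 0.08 (SE, adjusted p = 4.79e-05) for Reloading against Unloading and 0.87 ± 0.07 (SE, adjusted p = 1.48e-07) for Reloading against Control. The last was the largest change of any member in that comparison, and it stayed past the threshold in each of the 19 other settings. The rise in Unloading did not, with 11 of 19 settings past the threshold and 0.24 (adjusted p = 0.0916) with the sample numbers of the label descriptions as a replicate block.

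Its paralog Eif4a2, the form more abundant in muscle here, was at 369, 328, 334 and 379 CPM in Control, 385 and 355 CPM in Unloading and 404, 384 and 388 CPM in Reloading. It passed the test in none of the 3 comparisons, with log2 fold changes of 0.07, 0.08 and 0.15. With the same replicate block, Reloading against Control reached 0.18 (adjusted p = 0.0314), and by library totals Eif4a2 was called higher in Reloading than in Unloading, at 0.33 (adjusted p = 0.00411). Eif4a3 was at 22.6, 25.5, 27.4 and 25.6 CPM, 25.0 and 29.3 CPM and 33.2, 27.0 and 25.5 CPM in the 3 groups in the same order, and did not pass the test, with the 95% interval of Reloading against Unloading at -0.19 to 0.32 on the TMM scale and the value by library totals at 0.31 (adjusted p = 0.0485).

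Eif4b followed another course than Eif4a1. Its level was 328, 285, 302 and 307 CPM in Control, 425 and 356 CPM in Unloading and 295, 256 and 274 CPM in Reloading. Both Unloading libraries lay above all others, with 0.35 ± 0.09 (SE, adjusted p = 0.0187) on the log2 scale against Control and -0.50 ± 0.09 (SE, adjusted p = 0.000554) for Reloading against Unloading. Without Unloading 1 the first of these was 0.22 (adjusted p = 0.330). Reloading did not differ from Control past the threshold (-0.15 ± 0.08 (SE, adjusted p = 0.131)). Eif4h was at 125, 133, 123 and 119 CPM, 132 and 132 CPM and 147, 154 and 145 CPM, and was higher in Reloading than in Control by 0.25 ± 0.06 (SE, adjusted p = 0.00448), with 0.17 ± 0.07 (SE, adjusted p = 0.0831) against Unloading and 0.42 (adjusted p = 0.000530) there by library totals.

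Of the 3 tested cap-binding proteins, 1 was called on the TMM scale, in 1 comparison. Eif4e, which encodes the main cap-binding factor, was at 117, 106, 101 and 115 CPM in Control, 98.0 and 96.8 CPM in Unloading and 98.2, 107 and 110.1 CPM in Reloading. The log2 fold change was -0.17 ± 0.08 (SE, adjusted p = 0.200) in Unloading against Control and 0.11 ± 0.08 (SE, adjusted p = 0.316) in Reloading against Unloading, and both missed the threshold. Eif4e2, whose product binds the cap and acts mostly as a repressor, was at 51.3, 56.4, 57.2 and 57.8 CPM, 50.7 and 62.7 CPM and 70.0, 62.0 and 58.1 CPM, and was not called either. By library totals both were called higher in Reloading than in Unloading, Eif4e at 0.36 (adjusted p = 0.00314) and Eif4e2 at 0.41 (adjusted p = 0.00482). Eif4e3 was at 37.4, 37.5, 36.7 and 39.0 CPM, 41.8 and 42.4 CPM and 35.7, 35.5 and 35.8 CPM, with both Unloading libraries above the rest. It was lower in Reloading than in Unloading at -0.24 ± 0.07 (SE, adjusted p = 0.0205) on the TMM scale but stood at 0.01 by library totals, and the call was lost in 8 of 19 other settings, among them the description-number replicate block, at -0.25 (adjusted p = 0.0553).

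The eIF4G scaffolds bridge the cap-binding protein, the helicase and eIF3, and Eif4g2 encodes a shorter relative that lacks the eIF4E site. Eif4g1 was at 809, 804, 846 and 884 CPM in Control, 810.1 and 855 CPM in Unloading and 814, 797 and 830.3 CPM in Reloading. It was not called on the TMM scale, with a 95% interval of -0.19 to 0.12 for Reloading against Unloading, and by library totals it was called higher there, at 0.21 (adjusted p = 0.0183). Eif4g3 was at 260.1, 245, 252 and 276 CPM, 331 and 306 CPM and 275, 253 and 269.7 CPM, and rose in Unloading by 0.30 ± 0.07 (SE, adjusted p = 0.0177) and fell in Reloading, at -0.26 ± 0.08 (SE, adjusted p = 0.0150). Eif4g2 was at 877, 816, 828 and 915 CPM, 947 and 827 CPM and 679.9, 716 and 764 CPM. All 3 Reloading libraries lay below the others, with -0.30 ± 0.08 (SE, adjusted p = 0.0108) against Unloading and -0.25 ± 0.07 (SE, adjusted p = 0.00892) against Control. By library totals Eif4g2 was at -0.054 and -0.015 there and Eif4g3 at -0.01 against Unloading, and none of these was called. Eif4g3 in Unloading against Control was 0.29 (adjusted p = 0.0517) without Control 3. Without Unloading 1 the values of Eif4g3 and Eif4g2 against Unloading were -0.21 (adjusted p = 0.118) and -0.21 (adjusted p = 0.139).

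The eIF4E-binding proteins hold eIF4E away from eIF4G until mTORC1 phosphorylates them. Eif4ebp2 was the abundant form, at 399, 347, 384 and 398 CPM in Control and 379.7 and 399.7 CPM in Unloading, and 269, 297 and 299 CPM in Reloading. The Reloading libraries lay below all others, at -0.43 ± 0.08 (SE, adjusted p = 0.000727) against Unloading and -0.41 ± 0.07 (SE, adjusted p = 0.000235) against Control, the latter the lowest value of any member in that comparison. By library totals the values were -0.19 and -0.17, and neither was called. Eif4ebp1 was at 39.4, 43.9, 46.1 and 42.6 CPM, 45.3 and 48.8 CPM and 49.3, 44.5 and 46.4 CPM, with log2 fold changes of -0.01 ± 0.09 (SE, adjusted p = 0.931) against Unloading and 0.12 ± 0.07 (SE, adjusted p = 0.214) against Control, the former at 0.24 (adjusted p = 0.0355) by library totals. Eif4enif1, whose product 4E-T carries eIF4E into the nucleus, was at 32.6, 33.0, 34.0 and 32.6 CPM, 38.5 and 38.2 CPM and 34.2, 35.7 and 39.0 CPM. Its value in Unloading against Control was 0.21 ± 0.08 (SE, adjusted p = 0.0956), and it was called in none of the comparisons.

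**Figure D4:**
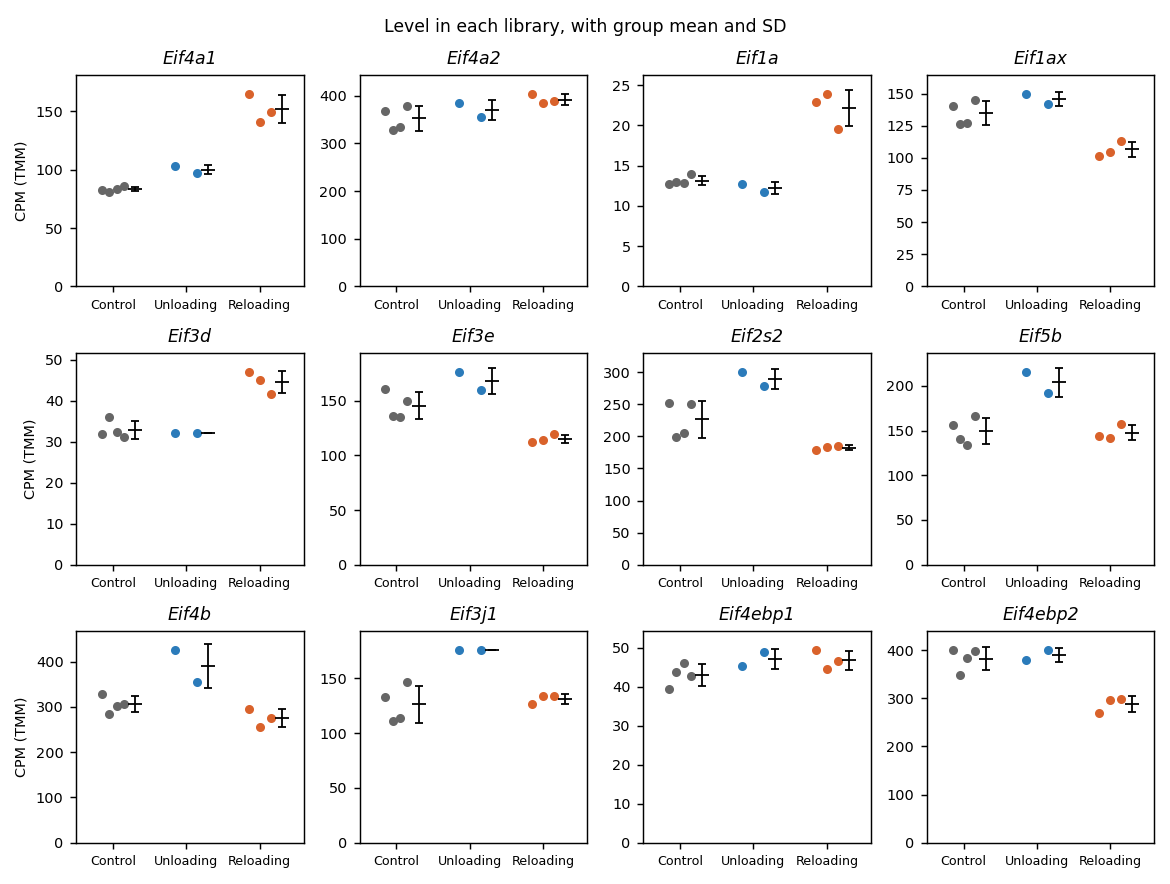
CPM after TMM scaling (y axis, from 0) of 12 initiation factor genes in each library of Control (n = 4), Unloading (n = 2) and Reloading (n = 3), with the group mean and SD beside the points. Eif4a1 was highest in the 3 Reloading libraries, at 165, 141 and 149 CPM, Eif5b and Eif3j1 were highest in the 2 Unloading libraries, and Eif4ebp2 was lowest in Reloading on this scale.

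Factors of scanning and start-codon choice gave the largest contrast between paralogs. Eif1a and Eif1ax both encode eIF1A, which keeps the scanning ribosome open; Eif1a is autosomal and Eif1ax lies on the X chromosome (chrX:159372178-159389928). Eif1a was at 12.7, 12.9, 12.9 and 14.0 CPM in Control, 12.7 and 11.7 CPM in Unloading and 22.9, 23.9 and 19.6 CPM in Reloading. It was the member with the largest rise between Reloading and Unloading, 0.86 ± 0.12 (SE, adjusted p = 5.02e-05), and stood at 0.75 ± 0.10 (SE, adjusted p = 1.93e-05) against Control, past the threshold in all 19 other settings of both. Eif1ax, the abundant form, was at 141, 127, 127 and 145 CPM, 149.8 and 142 CPM and 101.5, 104.9 and 113 CPM, and fell, at -0.45 ± 0.08 (SE, adjusted p = 0.000649) against Unloading and -0.34 ± 0.07 (SE, adjusted p = 0.00128) against Control. That fall was not called by library totals, with -0.20 and -0.10.

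Eif5b encodes the factor that joins the large subunit. It was at 156, 141, 133 and 166 CPM in Control, 216 and 193 CPM in Unloading and 144, 142 and 157 CPM in Reloading. The Unloading libraries lay above all others, with 0.45 ± 0.09 (SE, adjusted p = 0.00611) against Control and -0.47 ± 0.09 (SE, adjusted p = 0.00135) for Reloading against Unloading. The latter was -0.22 (adjusted p = 0.0658) by library totals. Reloading against Control was at -0.01, or 0.23 by library totals. Eif1, the factor that checks the start codon, was the member with the most read pairs per length and fell in Reloading, at -0.30 ± 0.09 (SE, adjusted p = 0.0111) against Unloading and -0.21 ± 0.07 (SE, adjusted p = 0.0286) against Control, the latter at 0.03 by library totals and -0.14 (adjusted p = 0.147) without Reloading 1. The former was -0.06 by library totals, and not called, and -0.28 without Unloading 1. Eif5, the activator of eIF2's GTPase, was at 0.34 in Unloading against Control with an adjusted p = 0.0699, and at 0.29 (adjusted p = 0.0281) with the description-number replicate block. Eif1b, the paralog of Eif1, and Eif1ad were called in no comparison on the TMM scale.

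The eIF2 complex carries the initiator tRNA, and its subunits did not move together. Eif2s2, the beta subunit, was at 252, 199, 206 and 250.3 CPM in Control, 301 and 278 CPM in Unloading and 179, 183 and 186 CPM in Reloading. On the TMM scale the 3 groups did not overlap, with Unloading highest and Reloading lowest. By library totals the value of Reloading against Control was -0.07 and was not called. Eif2s2 rose by 0.35 ± 0.09 (SE, adjusted p = 0.0287) in Unloading and was the lowest member in Reloading against Unloading, at -0.67 ± 0.10 (SE, adjusted p = 0.000125), a call that all 19 other settings kept. The rise in Unloading was not called without Control 2, Control 3 or either Unloading library, with values from 0.29 to 0.41. Eif2s1, the alpha subunit whose phosphorylation slows initiation, was at 43.1, 43.7, 40.4 and 41.9 CPM, 38.7 and 37.6 CPM and 45.2, 44.0 and 43.0 CPM. It was higher in Reloading than in Unloading by 0.21 ± 0.08 (SE, adjusted p = 0.0452), a call that 3 of 19 other settings kept.

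The gamma subunit is encoded on both sex chromosomes. Eif2s3y, on the Y chromosome, was read in all libraries, at 71.0, 62.6, 54.6 and 69.0 CPM in Control, 80.4 and 68.5 CPM in Unloading and 46.6, 51.3 and 52.9 CPM in Reloading. It fell, at -0.56 ± 0.11 (SE, adjusted p = 0.000932) against Unloading and -0.35 ± 0.09 (SE, adjusted p = 0.00718) against Control, the latter at -0.11 and not called by library totals. Its X-linked copy Eif2s3x was at 42.4, 36.8, 35.1 and 45.1 CPM, 44.5 and 38.6 CPM and 39.3, 34.8 and 40.3 CPM and was not called, with a 95% interval of -0.36 to 0.12 in Reloading against Unloading. Reads of these near-identical genes may be hard to tell apart. Eif2a and Eif2d encode alternative carriers of initiator tRNA. Eif2a was at 55.6, 50.1, 52.3 and 54.9 CPM, 58.8 and 49.9 CPM and 42.5, 40.4 and 43.8 CPM, and Eif2d at 27.9, 28.1, 27.4 and 29.3 CPM, 24.0 and 29.2 CPM and 20.4, 22.7 and 22.6 CPM. Both were lower in Reloading than in Control on the TMM scale, at -0.33 ± 0.08 (SE, adjusted p = 0.00229) and -0.36 ± 0.09 (SE, adjusted p = 0.00364), and by library totals neither was called, at -0.09 and -0.12.

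Of the 5 subunits of eIF2B, the exchange factor that recharges eIF2 with GTP, Eif2b4 was called on the TMM scale. It was at 53.1, 60.5, 52.9 and 54.8 CPM in Control, 49.3 and 54.2 CPM in Unloading and 72.8, 60.5 and 68.8 CPM in Reloading. It was higher in Reloading by 0.38 ± 0.09 (SE, adjusted p = 0.00551) against Unloading and 0.28 ± 0.08 (SE, adjusted p = 0.00901) against Control, with 0.31 (adjusted p = 0.0689) for the first without Unloading 1 and 0.23 (adjusted p = 0.0528) for the second without Reloading 1. Eif2b1, Eif2b2, Eif2b3 and Eif2b5 were called in no comparison on the TMM scale, with log2 fold changes between Reloading and Unloading of -0.02, -0.05, -0.08 and -0.02. By library totals Eif2b1 and Eif2b5 were called higher there, at 0.22 and 0.23. On that scale all 5 subunits were called higher in Reloading than in Control, Eif2b1 at 0.34, Eif2b2 at 0.32, Eif2b3 at 0.33, Eif2b4 at 0.52 and Eif2b5 at 0.26.

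The eIF3 complex, the largest of the initiation factors, was represented by 14 genes, and its subunits split on the TMM scale. Between Reloading and Unloading 2 rose, 8 fell and 4 were not called, and between Reloading and Control 5 rose, 5 fell and 4 were not called. Of all genes tested, 18.5% rose and 19% fell in the first comparison, and 22.1% and 21.3% in the second. By library totals Eif3a, Eif3b, Eif3d, Eif3g and Eif3l were called higher than in Unloading and Eif3e and Eif3f lower, beside 35.4% and 7.34% of all genes. Against Control no member was called lower by library totals. Eif3a, Eif3b, Eif3c, Eif3d, Eif3g, Eif3j1, Eif3j2 and Eif3l were called higher there, beside 40.6% of all genes. Eif3d, whose product can itself bind the cap of some mRNAs, was at 32.0, 36.1, 32.4 and 31.1 CPM in Control, 32.1 and 32.1 CPM in Unloading and 47.1, 45.2 and 41.8 CPM in Reloading. It rose by 0.48 ± 0.09 (SE, adjusted p = 0.000719) against Unloading and 0.44 ± 0.07 (SE, adjusted p = 0.000228) against Control, in all 19 other settings of both. Of its exon bases 43.3% overlap the antisense gene Gm17638, whose mean was 1.52 normalised counts beside 475.6 for Eif3d, and the counting did not use strand. Eif3g, which helps scanning, rose by 0.30 ± 0.09 (SE, adjusted p = 0.0158) and 0.31 ± 0.07 (SE, adjusted p = 0.00294). The first was 0.16 (adjusted p = 0.233) without Unloading 1 and 0.26 (adjusted p = 0.0614) without the libraries that held skin transcripts, and the second was called in all 19 other settings.

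The core subunits Eif3a and Eif3b did not follow Eif3e and Eif3f. Eif3a was at 209.9, 193, 208 and 223 CPM in Control, 259 and 240.3 CPM in Unloading and 290.4, 237 and 262 CPM in Reloading, above Control in all libraries of both other groups. On the TMM scale it was called only in Reloading against Control, at 0.33 ± 0.08 (SE, adjusted p = 0.00240), and the value of Unloading against Control was 0.26 ± 0.09 (SE, adjusted p = 0.0675). Eif3b and Eif3l were also higher in Reloading than in Control, by 0.24 ± 0.06 (SE, adjusted p = 0.00364) and 0.19 ± 0.07 (SE, adjusted p = 0.0295). The call of Eif3b held in all 19 other settings and that of Eif3l in 10 of 19, and without any 1 of the 3 Reloading libraries, Control 3 or Control 4 the value of Eif3l was between 0.16 and 0.20 and not called. Eif3e was at 161, 136, 135 and 150.1 CPM, 177 and 159.8 CPM and 113, 114 and 119 CPM, and Eif3f at 144, 139, 147 and 132 CPM, 162 and 150.4 CPM and 103, 120.1 and 113 CPM. For both genes all Reloading libraries lay below all others on the TMM scale, with -0.54 ± 0.09 (SE, adjusted p = 0.000204) and -0.48 ± 0.08 (SE, adjusted p = 0.000382) against Unloading. By library totals the values against Control were -0.096 and -0.087, and neither was called.

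Eif3j1 encodes the loosely bound subunit eIF3j. It was at 133, 111, 114 and 147 CPM in Control, 176 and 176 CPM in Unloading and 126, 134 and 134 CPM in Reloading. It rose in Unloading by 0.48 ± 0.10 (SE, adjusted p = 0.00658), the largest rise among the members called there. It fell in Reloading, at -0.42 ± 0.10 (SE, adjusted p = 0.00453) against Unloading, or -0.17 (adjusted p = 0.171) by library totals. Reloading against Control was at 0.06, or 0.30 by library totals. Eif3c, a core subunit, rose in Unloading by 0.31 ± 0.07 (SE, adjusted p = 0.0136) and was lower in Reloading than in Unloading, at -0.25 ± 0.08 (SE, adjusted p = 0.0185). The latter was not called by library totals, at -4e-04, or with the description-number replicate block, at -0.20 (adjusted p = 0.0765). Without Unloading 1 it was -0.16. The subunit genes Eif3h, Eif3i and Eif3m were lower in Reloading than in Unloading, at -0.39, -0.31 and -0.34, each in 18 of 19 other settings. Library totals were the setting without a call, at -0.15, -0.06 and -0.09 in the same order. Eif3k was lower at -0.26, with libraries of the 2 groups overlapping, in 13 of 19 settings, and stood at -0.0075 by library totals and -0.11 without Unloading 2. Against Control, Eif3h was lower at -0.22 on the TMM scale, at 0.02 by library totals and at -0.17 (adjusted p = 0.0692) without Reloading 1. Eif3k missed the threshold there (adjusted p = 0.0584) and passed it with the description numbers as a replicate block, at -0.22 (adjusted p = 0.0319).

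Eif5a and Eif6 act outside the initiation complex, in elongation past difficult codons and in keeping the large subunit apart until it is needed. Eif6 was at 29.0, 33.2, 31.4 and 29.2 CPM in Control, 31.9 and 33.3 CPM in Unloading and 41.1, 40.8 and 38.1 CPM in Reloading, and was higher in Reloading by 0.29 ± 0.09 (SE, adjusted p = 0.0146) against Unloading and 0.38 ± 0.07 (SE, adjusted p = 0.000641) against Control. The first was 0.26 (adjusted p = 0.101) without Unloading 1 and 0.32 (adjusted p = 0.0531) without Unloading 2. Eif5a was at 311 ± 11.8 CPM (SD, n = 4), 303 ± 8.39 CPM (n = 2) and 255 ± 2.55 CPM (n = 3), and fell on the TMM scale, at -0.25 ± 0.07 (SE, adjusted p = 0.0110) and -0.29 ± 0.06 (SE, adjusted p = 0.00109), the first at -0.23 without Unloading 2. By library totals Eif5a was at -0.001 and -0.05, and neither value was called. Its paralog Eif5a2 was scarce, at 1.57 ± 0.375 CPM, 2.25 ± 0.0954 CPM and 1.89 ± 0.321 CPM, and was not called. The remaining 7 members did not pass the filter on low counts. Over all 9 libraries Eif4a3l2 had 40 read pairs, Eif4ebp3 31, Eif4a3l1 14, Eif1ad19 4, Eif4e1b 3, and Eif1ad8 and Eif1ad12 2 each. Eif4ebp3 shares 67.3% of its exon bases with the readthrough gene Maskbp3, so its count is uncertain.

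Ratios of paralogs or partners within a library do not depend on the scaling between libraries. For 14 pairs the log2 ratio of read pairs per exon length was compared between groups by a two-sided exact permutation test, 42 tests in all. The smallest p the test can give was 0.1 for 3 against 2 libraries, 0.0667 for 2 against 4 and 0.0286 for 3 against 4, and after adjustment over the 42 tests the smallest value was 0.183, so no pair could be called.

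Eif1a to Eif1ax stood farthest apart. Its log2 ratio was -3.13, -2.95, -2.97 and -3.04 in Control, -3.22 and -3.26 in Unloading and -1.81, -1.79 and -2.19 in Reloading, a difference of 1.31 between Reloading and Unloading (exact p = 0.1) and 1.09 between Reloading and Control (exact p = 0.0286). Eif4a1 to Eif4a2 was at -1.86, -1.71, -1.69 and -1.85 in Control, -1.60 and -1.57 in Unloading and -0.99, -1.14 and -1.08 in Reloading. All groups were apart for this pair, and the difference between Reloading and Control was 0.71 (exact p = 0.0286). Eif4a1 to Eif4a3 differed by 0.69 in the same comparison (exact p = 0.0286).

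Eif4ebp1 to Eif4ebp2 was at -1.95, -1.59, -1.66 and -1.83 in Control, -1.67 and -1.64 in Unloading and -1.05, -1.34 and -1.29 in Reloading, so the 3 Reloading libraries lay above all others (exact p = 0.0286 against Control). Eif4b to Eif4h was lower in all Reloading libraries, at -0.67 on the log2 scale against Unloading (exact p = 0.1). Eif4e to Eif4e3 was lower in both Unloading libraries, at -0.03 and -0.07, than in Control, at 0.39, 0.24, 0.20 and 0.30, or in Reloading, at 0.20, 0.34 and 0.37. Eif4e to Eif4e2 and Eif5a to Eif5a2 overlapped between Reloading and Unloading, with differences of -0.05 and 0.02.

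**Figure D5:**
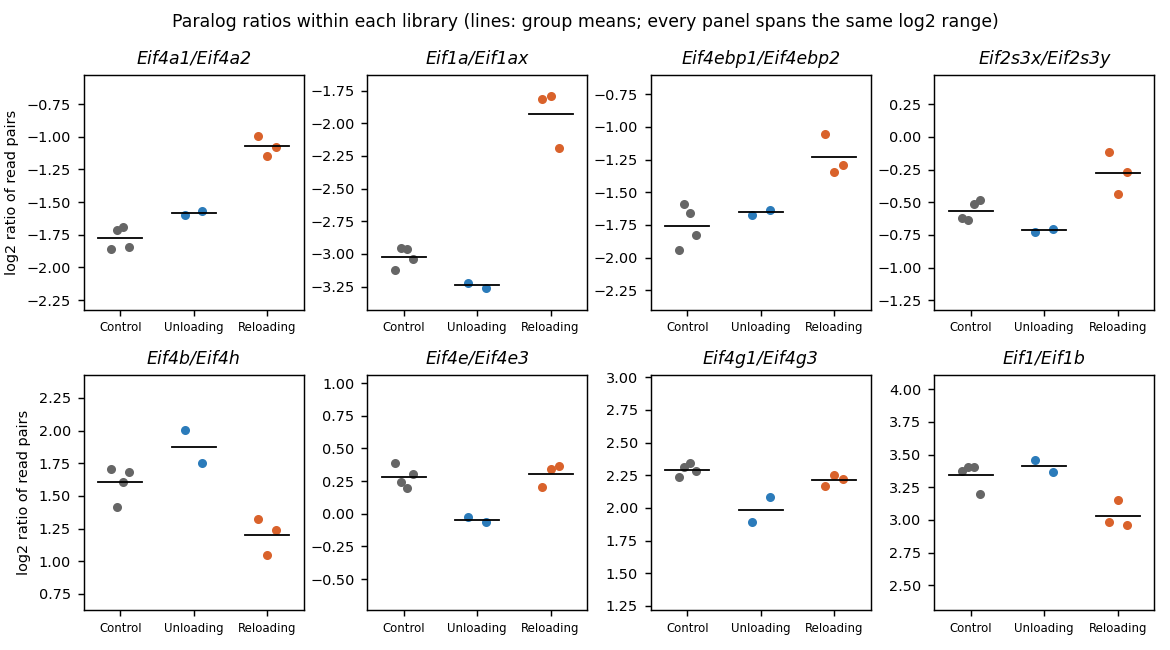
Log2 ratio of read pairs per exon length of 8 gene pairs within each library (y axis), by group, with lines at the group means; the y axes span equal ranges but start at different values. Eif1a to Eif1ax and Eif4a1 to Eif4a2 were higher in all 3 Reloading libraries, and Eif4e to Eif4e3 was lower in both Unloading libraries.

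Levels were set side by side per length, as CPM per kilobase of exon. Eif1 led in all 3 groups, with 229 ± 15.1 CPM per kilobase in Control (SD, n = 4), followed by Eif5a at 131 ± 4.95 and Eif4g1 at 114 ± 5.08. Eif4ebp2 and Eif4a2 were next to each other, at 66.1 ± 4.20 and 66.0 ± 4.77, and did not differ beyond their spread. Eif1a ranked 47 of 56 and Eif2b3 48, at 3.15 ± 0.138 and 2.98 ± 0.242 CPM per kilobase. The order was much alike in the other groups, with Eif4a1 the gene that moved farthest up, from rank 29 in Control at 19.2 ± 0.441 to rank 25 in Unloading at 23.1 ± 0.958 and rank 13 in Reloading at 35.0 ± 2.81 CPM per kilobase.

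Genes that regulate these factors were counted from lists by function. Among all genes tested, 18.5% rose and 19% fell between Reloading and Unloading, and 4.4% and 5.5% between Unloading and Control. The shares were 22.1% and 21.3% between Reloading and Control, and the counts below stand beside these. Counts and values of these lists are on the TMM scale, and those by library totals are not given here. By library totals all genes stood higher in Reloading, by 0.25 against Unloading and 0.24 against Control. Falls in Reloading of about that size or less therefore depend on the scaling. Of the 4 eIF2-alpha kinases, 0 rose and 1 (Eif2ak1, the heme-regulated kinase) fell between Reloading and Unloading, at -0.22 ± 0.08 (SE, adjusted p = 0.0398), and 1 (Eif2ak3, the kinase of the endoplasmic reticulum) rose between Reloading and Control, at 0.66 ± 0.14 (SE, adjusted p = 0.00106). None was called between Unloading and Control, with log2 values from -0.33 to 0.30. Among 5 subunits of the eIF2-alpha phosphatases 1 rose and 2 fell between Reloading and Unloading, the latter the catalytic subunits Ppp1ca and Ppp1cb at -0.39 and -0.74. The riser was Ppp1r15a (GADD34), the inducible subunit that directs the phosphatase to eIF2-alpha, at 28.9, 30.8, 32.1 and 26.8 CPM in Control, 31.3 and 29.2 CPM in Unloading and 72.9, 64.5 and 64.2 CPM in Reloading. The Reloading libraries lay well above the others, by 1.15 ± 0.10 (SE, adjusted p = 6.04e-07) against Unloading and 1.18 ± 0.08 (SE, adjusted p = 3.32e-08) against Control.

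Among 4 eIF4E kinases and regulators of eIF4A or TOP mRNAs, 1 rose and 2 fell between Reloading and Unloading, the latter the eIF4E kinase gene Mknk1 at -0.41 and Pdcd4, which encodes an inhibitor of eIF4A, at -0.34. Mknk2, which encodes a kinase that phosphorylates eIF4E, was at 262, 311, 304 and 321 CPM in Control, 313 and 312 CPM in Unloading and 832, 816 and 709.9 CPM in Reloading. It rose by 1.33 ± 0.10 (SE, adjusted p = 1.75e-07) and 1.39 ± 0.08 (SE, adjusted p = 4.85e-09) against Unloading and Control, more than any initiation factor gene. Of 15 genes of mTORC1 and its regulators, 1 rose and 6 fell between Reloading and Unloading, 2 rose and 0 fell between Unloading and Control, and 3 rose and 3 fell between Reloading and Control. The last counts stand beside 22.1% and 21.3% of all genes tested. The medians were -0.16, 0.09 and -0.08. The single riser between Reloading and Unloading was Mtor, the kinase itself, at 46.7, 47.8, 51.6 and 48.6 CPM in Control, 48.5 and 52.1 CPM in Unloading and 80.2, 71.4 and 76.8 CPM in Reloading, or 0.60 ± 0.08 (SE, adjusted p = 5.67e-05). Rps6kb1 and Rps6kb2, which encode the S6 kinases that mTORC1 activates, went the other way. Rps6kb1 was at 53.7, 52.9, 51.9 and 62.2 CPM, 53.1 and 56.8 CPM and 36.3, 38.2 and 42.0 CPM, or -0.50 ± 0.09 (SE, adjusted p = 0.000775), and Rps6kb2 changed by -0.29 ± 0.10 (SE, adjusted p = 0.0327). The other 4 that fell on the TMM scale encode proteins that restrain mTORC1, Akt1s1 at -0.28, Deptor at -0.49, Ddit4l at -0.63 and Sesn3. Further genes of this kind in the list were not called between Reloading and Unloading. They were Tsc1 at -0.23, Tsc2 at -0.08, Ddit4 at -0.16, Sesn1 at 0.12 and Sesn2 at 0.32. Sesn1 was at 35.5, 30.5 and 29.5 CPM in Reloading, above all Control libraries, at 17.9 to 22.6 CPM. The lowest of the list was Sesn3, a sestrin that restrains mTORC1, at 23.8, 20.7, 22.1 and 24.4 CPM, 25.7 and 23.2 CPM and 11.1, 13.0 and 13.8 CPM, or -0.94 ± 0.12 (SE, adjusted p = 2.19e-05). The 2 that rose in Unloading against Control were Deptor and Sesn1, at 0.40 and 0.55. In these lists all genes but Ppp1r15a and Mknk2 were chosen for naming after their values were seen.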

How the data were processed

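Polyadenylated RNA of gastrocnemius was sequenced in 9 libraries. Per the labels and the file headers, the authors aligned reads to GRCm38.p6 with STAR 2.7.3a and made the deposited counts, whole read pairs per Ensembl gene, with featureCounts 2.0.3 without strand, so pairs on exons of overlapping genes cannot be told apart. The study's methods describe single reads and the count command in the file header read pairs, and the counts were taken as pairs. The deposited DESeq2 tables gave symbols, biotypes and a mean normalised count per gene (a signal value over all libraries, by the authors' size factors), and their fold changes and p-values were not used.

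Counts were fitted with edgeR 4.0.16 (R 4.3.3) after filterByExpr (minimum count 10, total 15) and TMM scaling: 1 quasi-likelihood fit over 3 groups, tested on simulated data, with Benjamini-Hochberg adjustment over 14851 genes and a threshold of 0.05. SE is the fold change over the root of F. Alternatives included DESeq2 1.42.0. Ratios of 14 gene pairs were compared by exact permutation. Members, lists and tests were chosen with earlier results of these data known. Named with values in every library were, per comparison, the 12 called members with the largest change and all tested eIF4 members, and list genes called with a log2 change of at least 1.

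Numbers in the label descriptions, but not those in the titles, met the rule for pairing Control with Reloading (correlations of deviations 0.36, 0.14 and 0.16 over 3 pairs). The 0.36 was between Control 2 and Reloading 1, the libraries with skin transcripts, whose part in it was not tested. Control 1, which these numbers pair with no Reloading library, gave 0.11 with Reloading 2 and 0.12 with Reloading 3. The description numbers were used as a replicate block in an alternative added after seeing the data, printed where it changed a call.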

Additional observations from a re-analysis of the deposited data

Results flagged for a closer look

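Among the 49 tested initiation factor genes, 4 had a Control library set apart from the other 3 by more of the group's range than Dixon's 95% limit allows, and about 1 in 20 groups would be marked so without any cause. Eif2b2 was at 48.4 CPM in Control 4, with the others between 44.1 and 44.3 CPM. Eif5 was at 305 CPM in Control 1, with the others between 228 and 234 CPM, and without that library its rise in Unloading passed the threshold (adjusted p = 0.00937). Eif2b5 was at 65.2 CPM in Control 1, below the others at 70.6 to 71.6 CPM. Eif1a was at 14.0 CPM in Control 4, with the others between 12.7 and 12.9 CPM, and its calls against Reloading held without any 1 library. Groups of 2 and 3 libraries were not examined in this way.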

How the results depend on the processing

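The 2 Unloading libraries and the scaling limit these results most. For Reloading against Unloading, leaving out 1 library gave 18 to 28 members called, 3 to 6 higher and 15 to 22 lower, with the fewest called and the fewest higher (18 and 3) without Unloading 1. For Unloading against Control it gave 0 to 8 called and higher, with 4 without Control 3 and 0 without Unloading 1, a fit with 1 Unloading library in which the fold changes of the 7 genes called with both lay between 0.22 and 0.48. For Reloading against Control it gave 20 to 25 called, 8 to 10 higher and 12 to 15 lower. Library totals alone gave 21 higher and 5 lower between Reloading and Unloading and 31 higher and 0 lower between Reloading and Control. An adjusted p under 0.01 left 17 called, 4 higher and 13 lower between Reloading and Unloading, and 2 called, all higher, between Unloading and Control. A minimum of 1.5-fold left 3 called, 2 higher and 1 lower between Reloading and Unloading, 0 called or higher between Unloading and Control, and 2 called, 2 higher and 0 lower between Reloading and Control.

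By library totals, 18 values changed sign, as that scaling raises all genes in Reloading, of which 7 were called under neither scaling. The other 11 were, between Reloading and Unloading Eif2b1 at 0.22, Eif4e3 at 0.0089, Eif4ebp1 at 0.24, Eif2b5 at 0.23 and Eif4g1 at 0.21, and between Reloading and Control Eif5b at 0.23, Eif4e at 0.18, Eif4e3 at 0.16, Eif1 at 0.0302, Eif3h at 0.0214 and Eif4g1 at 0.20. RLE factors, the other filters, DESeq2, the robust fit and fits of 2 groups left all counts within 1.5 times. Without Control 2 and Reloading 1, the libraries with skin transcripts, 23, 5 and 22 members were called in the comparisons in the order above. In that fit Eif4b was called lower between Reloading and Control.

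With the title numbers as a replicate block, which the libraries did not follow (correlations from -0.20 to 0.08), 25, 6 and 24 members were called, and with the description numbers as a replicate block 26, 7 and 26. In the latter fit Eif4e3 and Eif3c lost their calls between Reloading and Unloading and Eif4a1 its call in Unloading, while Eif5 gained one there (adjusted p = 0.0281).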

Other observations

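Other steps of translation were counted on the TMM scale from lists of the same kind, to be read beside the shares of all genes given with those lists. Of 9 elongation factor genes, 2 rose and 3 fell between Reloading and Unloading, 1 rose and 1 fell between Unloading and Control, and 3 rose and 3 fell between Reloading and Control. Eef1a1 and Eef1a2, which encode the common and the muscle form of the factor that brings tRNA to the ribosome, stood apart in the last comparison. Eef1a1 was at 238, 255, 239.6 and 233 CPM in Control, 292 and 284 CPM in Unloading and 444, 345 and 343 CPM in Reloading, or 0.64 ± 0.08 (SE, adjusted p = 2.12e-05) against Control. Eef1a2 was at 1684, 1926, 1890.4 and 1791 CPM, 1245 and 1589 CPM and 1295, 1213 and 1191 CPM, or -0.56 ± 0.08 (SE, adjusted p = 6.1e-05). This pair was chosen after its values were seen, and the markers of fast fibres and of macrophages and endothelium moved with Reloading as given above. Their part in it was not tested.

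Of 5 poly(A)-binding protein genes, 2 rose and 2 fell between Reloading and Unloading. Of 9 initiation proteins not named Eif, 0 rose and 3 fell there, with a median of -0.18. None of 2 tested termination factors or 2 mitochondrial initiation factors was called in that comparison under the edgeR test, with medians of 0.06 and -0.03.

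Processed copies of initiation factor genes held few read pairs, at most 100 for Eif4a-ps4, 86 for Eif3s6-ps2 and 54 for Eif5al3-ps in any library. Of the members, 19 had exon bases in common with another gene, 3 of them over 20%: Eif4ebp3, Eif3d and, at 20.2%, Eif3j1, which overlaps Spg11.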
